A study of Homo sapiens with 34 samples.

Results

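RBPJ and SOX2 were examined at the promoters of 5 genes of basic cell functions, GTF2H4, NAPG, NUCB2, HPRT1 and CEP41, out of 19962 protein-coding genes on chromosomes 1 to 22 and X. The peaks described are those with a summit within 10 kb of the transcription start site (TSS) of the canonical transcript of one of these genes, and there were 38 such peaks among the 290228 peaks of 8 lists. Of these, 27 belonged to the 4 RBPJ lists and 11 to the 3 SOX2 lists, and none belonged to the HA control. The genes had been chosen by measured values of the same lists, because a high fold had been seen at their promoters, so their high folds are a description and were not tested. They had been grouped under the name strongest RBPJ promoters of housekeeping genes. Its part on strong RBPJ held for 4 of them. CEP41 had weak RBPJ peaks and a strong SOX2 peak, and is described here as a SOX2 promoter. Whether the genes were evenly expressed, as the word housekeeping implies, could not be checked, as no expression was measured by this assay.

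RBPJ is the DNA-binding protein of the NOTCH pathway. When a NOTCH receptor is cleaved by γ-secretase, its intracellular domain moves to the nucleus and joins RBPJ on DNA to switch target genes on, and without it RBPJ can recruit corepressors. SOX2 is a transcription factor of pluripotent and neural stem cells. The genes examined are not the usual targets of either factor. GTF2H4 encodes a subunit of TFIIH, the general transcription factor that opens promoter DNA and also acts in nucleotide excision repair. NAPG encodes gamma-SNAP, which helps to take apart SNARE complexes after membrane fusion. NUCB2 encodes nucleobindin 2, a calcium-binding protein and the precursor of the peptide nesfatin-1. HPRT1 encodes the enzyme that returns hypoxanthine and guanine to the nucleotide pool, and CEP41 encodes a protein of the centrosome and cilium that is needed for glutamylation of ciliary tubulin.

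The ChIP-seq data came from the triple-negative breast cancer line MB157, whose growth depends on NOTCH, and from MB157R, its derivative after 25 weeks of culture with a γ-secretase inhibitor (GSI) at 1 µM. All cells carried a doxycycline-inducible construct and received 1 µg/ml doxycycline for 72 h. MB157 carried the empty vector (iEV) or SOX2 with an HA tag (iSOX2), and MB157R carried the empty vector or iN1-ICD. The iN1-ICD construct, also HA-tagged, encodes NOTCH1 without its extracellular domain, which the paper calls N1-ICD. It is named the NOTCH1 intracellular domain below. RBPJ was precipitated in all 4 kinds of cells, SOX2 in MB157R iEV and iN1-ICD, and HA in MB157 iSOX2 and, as a control, in MB157 iEV. MB157R is 1 line derived from MB157, and SOX2 in iSOX2 cells is expressed from a construct, not from its own gene. Peaks had been called once per group after its libraries were merged, 3 for most groups and 1 for the HA control. The spread between replicates is therefore unknown, and no test between conditions was made. Intervals are exact Poisson 95% intervals of the fragment count at the summit, and cover counting error only. As a measure of depth, the fragments expected at any place of the genome ranged from 1.60 to 2.24 in the RBPJ, SOX2 and HA-SOX2 lists and came to 0.524 in the HA control.

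The sequences below are those around the RBPJ summits of MB157R iEV. They are shown because 3 of the 5 promoters hold the core of the RBPJ consensus within 100 bp of the summit. The core is GTGGGAA on either strand, and the promoter of highest fold lacks it there. The sequences were read from hg38, each on the strand of its gene. No stretch over 30 bases was printed where it would reach into an annotated exon. Capitals mark GTGGGAA, or TTCCCAC where it is on the other strand, in NAPG, NUCB2 and HPRT1, and in GTF2H4 TTCCCAG, which is CTGGGAA on the other strand and differs from the core in its first base. CEP41 has no capitals, and its stretch covers the SOX2 and HA-SOX2 summits of MB157R iEV and MB157 iSOX2.
GTF2H4 (chr6:30908028-30908163, plus strand): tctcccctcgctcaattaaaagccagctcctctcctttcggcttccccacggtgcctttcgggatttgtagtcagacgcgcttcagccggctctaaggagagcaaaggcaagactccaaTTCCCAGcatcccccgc
NAPG (chr18:10526007-10526036, plus strand): cctcctcggcgTTCCCACgcctatttgggc
NUCB2 (chr11:17276642-17276730, plus strand): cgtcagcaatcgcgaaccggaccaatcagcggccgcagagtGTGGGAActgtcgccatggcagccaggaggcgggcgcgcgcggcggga
HPRT1 (chrX:134459941-134460059, plus strand): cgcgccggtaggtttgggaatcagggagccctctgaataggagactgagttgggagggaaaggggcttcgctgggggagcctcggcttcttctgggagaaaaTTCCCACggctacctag
CEP41 (chr7:130441176-130441205, minus strand): acaaaaggcctcgctagccggcgtcccgcg

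The RBPJ core lay within 100 bp of the summit at NAPG, NUCB2 and HPRT1 in each of the 4 RBPJ lists. The same holds for 9.87% of the 12211 promoter summits of MB157R iEV, for 68% of the 100 of highest fold and for 3.17% of windows of the same length centred on all annotated protein-coding TSSs. Its letters reversed, AAGGGTG, were in 2.85%, 4% and 2.33% of these. NAPG and HPRT1 had a C in front of the core (CGTGGGAA, in 3.16% of promoter summits and 0.446% of all promoters), and NUCB2 had a T (TGTGGGAA, 2.26% and 0.751%). At NAPG the centre of the core was 6 bp downstream of the MB157R iEV summit. At NUCB2 it was 6 bp upstream of it, and at HPRT1 55 bp downstream. Over the 4 lists the HPRT1 core was 40 to 85 bp downstream of the summit. The core was thus nearer to the summit at NAPG and NUCB2 than at HPRT1.

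GTF2H4 and CEP41 had no RBPJ core within 100 bp of an RBPJ promoter summit, and none of the 5 genes had a form with A as the fourth base of the core (CGTGAGAA or TGTGAGAA). The CTGGGAA of GTF2H4, searched for after its sequence had been seen, had its centre 72 bp downstream of the MB157R iEV summit and was in 13.2% of promoter summits, 19% of the 100 of highest fold and 6.63% of all promoters. Of those 100 summits, 68 held the core, 11 held CTGGGAA without the core and 21 held neither, so GTF2H4 belonged to a minority of the strong RBPJ promoters. A second word of the GTF2H4 sequence that was searched for afterwards, TTGTAGT, was in 1.80% of promoter summits and 1.69% of all promoters. CCAAT was within 100 bp of the summits of GTF2H4, NUCB2 and CEP41, and near 19.8% of promoter summits and 25.2% of TSSs. AACAANG, a core of the SOX consensus, was within 100 bp of the RBPJ summits of none of the 5 genes and in 4.87% of promoter summits.

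GC content differed among the members. Within 100 bp of the MB157R iEV summit it was 59.7% at GTF2H4, 62.2% at HPRT1, 68.7% at NAPG, 69.2% at CEP41 and 72.6% at NUCB2, against a median of 66.2% over the promoter summits. NUCB2 had the most CpG dinucleotides, 24, and GTF2H4 the fewest, 13. GTF2H4 and HPRT1 lay below the median and the others above it.

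All 5 genes had an RBPJ summit within 1 kb of the TSS of their canonical transcript in all 4 lists. Among all protein-coding genes this share was 40.3% (MB157 iEV), 53.6% (MB157 iSOX2), 59.7% (MB157R iEV) or 45.6% (iN1-ICD), and 27.7% had a summit in all 4 lists. An RBPJ call at a promoter was thus common, and since the genes had been chosen on RBPJ, nothing is read from the count. The place of the TSS mattered. Measured from the outermost 5′ end of the annotated gene, 3 of the 5 had a summit within 1 kb in all 4 lists (background 25.7%), because that end lies 68586 bp upstream of the canonical TSS in NUCB2 and 1417 bp in CEP41. The canonical TSS is used below, as the strongest RBPJ and SOX2 summits of CEP41 and the strongest RBPJ summits of NUCB2 lay there.

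At GTF2H4 (chromosome 6, 30908207 to 30914106, plus strand) the RBPJ peak had a fold over the local input background of 101 in MB157 iEV (interval 89.3 to 114), 131 in iSOX2 (120 to 143), 133 in MB157R iEV (120 to 147) and 61.9 in iN1-ICD (53.3 to 71.4). It was the strongest peak of the whole genome in 3 lists and ranked 6 in iN1-ICD, where it was the second strongest promoter peak. Between 185 and 494 fragments covered its summit. The peak of MB157R iEV ran from 30907704 to 30908477 on hg38, and its summit lay outside any annotated exon, between DDR1 and the first exon of GTF2H4. The TSS of a long noncoding RNA, ENSG00000288473, lies 35 bp downstream of that of GTF2H4, so the peak cannot be given to one of the 2 genes alone.

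At NAPG (chromosome 18, 10525905 to 10552764, plus strand) the fold was 41.1 in MB157 iEV (35.6 to 47.2), 44.4 in iSOX2 (39.8 to 49.5), 92.5 in MB157R iEV (81.6 to 104) and 51.5 in iN1-ICD (43.4 to 60.7). The MB157R iEV list stood above the others, and there the peak (10525757 to 10526683) ranked 5 among all peaks. Its rank was 66 in MB157 iEV, 36 in iSOX2 and 15 in iN1-ICD. The summit was in an exon of a NAPG transcript other than the canonical one.

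At NUCB2 (chromosome 11, 17208153 to 17349980, plus strand) the fold was 45.7 in MB157 iEV (38.3 to 54.0), 33.5 in iSOX2 (29.1 to 38.3), 67.3 in MB157R iEV (60.8 to 74.3) and 71.0 in iN1-ICD (62.5 to 80.4). Both lists of MB157R were higher than both lists of MB157, and the intervals of the MB157R lists overlapped. Among all peaks the NUCB2 peak ranked 46 in MB157 iEV, 95 in iSOX2, 17 in MB157R iEV and 3 in iN1-ICD. In iN1-ICD it was the promoter peak of highest fold. The peak of MB157R iEV (17276178 to 17277651) covered the canonical TSS, and its summit was in the body of the longer NUCB2 transcripts but in no exon.

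NUCB2 also had weaker peaks at its outermost 5′ end, 68586 bp away, which are not among the 38. RBPJ there had a fold of 5.01 in MB157 iEV (2.99 to 7.96), 5.11 in iSOX2 (3.25 to 7.69), 10.1 in MB157R iEV (7.17 to 13.8) and 7.43 in iN1-ICD (4.77 to 11.1). The summit of MB157 iSOX2 lay 345 bp upstream of this end, in the body of PIK3C2A, so peaks here cannot be given to NUCB2 alone. Unlike the canonical promoter, this end had SOX2. In MB157R iEV, SOX2 summits lay 183 bp (fold 6.84) and 1230 bp (21.6) downstream of it, in iN1-ICD 1 lay 1141 bp downstream (4.57), and HA-SOX2 of MB157 iSOX2 had 2, at 117 bp (6.21) and 1292 bp (9.91). NUCB2 thus had its strong RBPJ peaks at one start and SOX2 peaks near the other, though SOX2 was not called only there. A SOX2 peak of MB157R iEV lay 12.7 kb upstream of the canonical TSS (fold 6.12). HA-SOX2 peaks lay 9.05 kb (6.17) and 12.8 kb (6.83) upstream of it.

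At HPRT1 (chromosome X, 134460165 to 134520513, plus strand) the fold was 42.0 in MB157 iEV (35.1 to 50.0), 49.3 in iSOX2 (42.8 to 56.6), 52.0 in MB157R iEV (44.1 to 60.8) and 28.3 in iN1-ICD (22.4 to 35.3). The first 3 lists had overlapping intervals, and iN1-ICD was the lowest, with an interval that met only that of MB157 iEV. Among promoter peaks it ranked 12, 15, 17 and 27. The summit was upstream of the gene in every list (peak of MB157R iEV 134459402 to 134461011).

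CEP41 (chromosome 7, 130393771 to 130442433, minus strand) had RBPJ folds of 3.78 in MB157 iEV (2.26 to 6.0), 4.57 in iSOX2 (3.07 to 6.58), 8.45 in MB157R iEV (6.15 to 11.4) and 6.54 in iN1-ICD (4.28 to 9.60). They rested on 16, 27, 42 and 24 fragments, and among promoter peaks the ranks were 6962, 6060, 2615 and 2061. The median fold of the promoter peaks was 4.99, 4.75, 6.02 and 4.91 in these lists, so CEP41 was below the median in MB157 and above it in MB157R. The plot of fold by list shows the separation of CEP41 from the other genes.

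**Figure D1:**
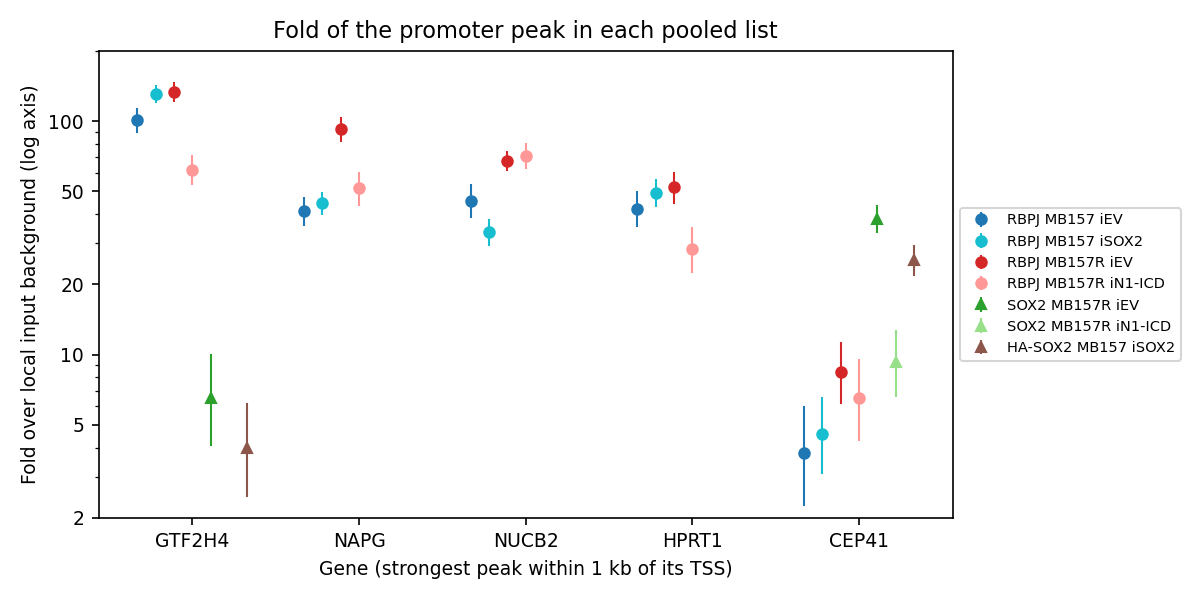
Fold over the local input background (log axis) of the strongest peak within 1 kb of the TSS of each gene, in the 4 RBPJ lists (circles) and the 3 SOX2 lists (triangles), with exact Poisson 95% intervals. RBPJ lies between 28.3 and 133 at GTF2H4, NAPG, NUCB2 and HPRT1 and between 3.78 and 8.45 at CEP41, where SOX2 is higher than RBPJ in MB157R iEV (38.0 against 8.45).

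RBPJ and SOX2 were mapped in the study to ask how SOX2 acts on NOTCH signaling. From MB157 iEV to MB157R iEV the fold was multiplied by 1.32 at GTF2H4 (counting interval 1.13 to 1.55), 2.25 at NAPG (1.86 to 2.72), 1.47 at NUCB2 (1.21 to 1.81), 1.24 at HPRT1 (0.971 to 1.58) and 2.23 at CEP41 (1.23 to 4.26). Of the 5 genes, 2 were at least 1.5 times higher, NAPG and CEP41, against 39.2% of the 7145 genes with a promoter peak in both lists, and none was that much lower, against 3.32%. The median over these genes was 1.35, and over the 111 of them with a fold of at least 20 in MB157 iEV it was 1.10. Among those 111 genes 96.4% had a lower ratio than NAPG, 71.2% a lower one than GTF2H4 and 63.1% a lower one than HPRT1. Over the genome background the ratio of NAPG was 1.15, which is below 1.5, and that of CEP41 was 2.31.

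By fold, induction of SOX2 in MB157 went with smaller differences, though those at GTF2H4 and HPRT1 were close to the ones above. The ratio of iSOX2 to iEV was 1.30 at GTF2H4 (1.12 to 1.51), 1.08 at NAPG (0.903 to 1.29), 0.733 at NUCB2 (0.587 to 0.917), 1.17 at HPRT1 (0.934 to 1.48) and 1.21 at CEP41 (0.628 to 2.40). None of the 5 differed by 1.5 times or more in either direction, compared with 11.4% of 7341 genes that were higher and 6.82% that were lower. At NUCB2 and GTF2H4 the counting intervals left out 1, in opposite directions. For NUCB2 the direction turned with the scale, as the ratio of summit fragments over the genome background was 1.24. On that scale all 5 genes lay between 1.24 and 1.45, with a median of 1.07 over the 7341 genes. GTF2H4 (1.45), NAPG (1.30) and HPRT1 (1.26) then differed more than between MB157R iEV and MB157 iEV (1.23, 1.15 and 1.08). NUCB2 (1.24 against 2.58) and CEP41 (1.33 against 2.31) differed less.

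With the NOTCH1 intracellular domain in MB157R, the ratio to iEV was 0.465 at GTF2H4 (0.387 to 0.555), 0.557 at NAPG (0.451 to 0.687), 1.05 at NUCB2 (0.896 to 1.24), 0.545 at HPRT1 (0.409 to 0.721) and 0.773 at CEP41 (0.448 to 1.31). GTF2H4, NAPG and HPRT1 were at least 1.5 times lower, as were 37.4% of 8646 genes, and none was at least 1.5 times higher, against 1.71%. The median was 0.740 over all these genes and 0.574 over the 278 with a fold of at least 20 in MB157R iEV. NAPG and HPRT1 were close to the median of the strong promoters. NUCB2 lay above 95.7% of those 278 genes.

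These ratios depended on the input background near each promoter. The local background at the NAPG summit was 2.41 times the genome background in MB157 iEV and 3.15 times in iSOX2, but 1.00 times in both lists of MB157R. At NUCB2 it was 1.22 times in MB157 iEV, 2.62 times in iSOX2, 2.66 times in MB157R iEV and 1.43 times in iN1-ICD, and at CEP41 it was between 1.61 and 2.52 times. GTF2H4 and HPRT1 stayed between 1.00 and 1.52 times. The local background of NAPG was thus high in MB157 and not in MB157R, while that of NUCB2 was high in the middle 2 lists.

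Measured as summit fragments over the genome background, the ratio of MB157R iEV to MB157 iEV was 1.15 at NAPG and 2.58 at NUCB2, in place of 2.25 and 1.47. Its median was 1.34 over the 7145 genes with a peak in both lists. Over the 111 of them with a fold of at least 20 in MB157 iEV it was 0.964. On this scale NUCB2 also had fewer fragments in iN1-ICD than in MB157R iEV, with a ratio of 0.656. GTF2H4 (1.23 and 0.513 for these comparisons) and HPRT1 (1.08 and 0.520) kept values close to those by fold. For all 5 genes the ratio of iN1-ICD to MB157R iEV was then below 1, between 0.513 and 0.656. This was general, as 91.4% of the 8646 genes lay below 1 with a median of 0.683, and the median of the 278 strong ones was 0.582. The part of the local background in the differences of fold was not tested further.

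**Figure D2:**
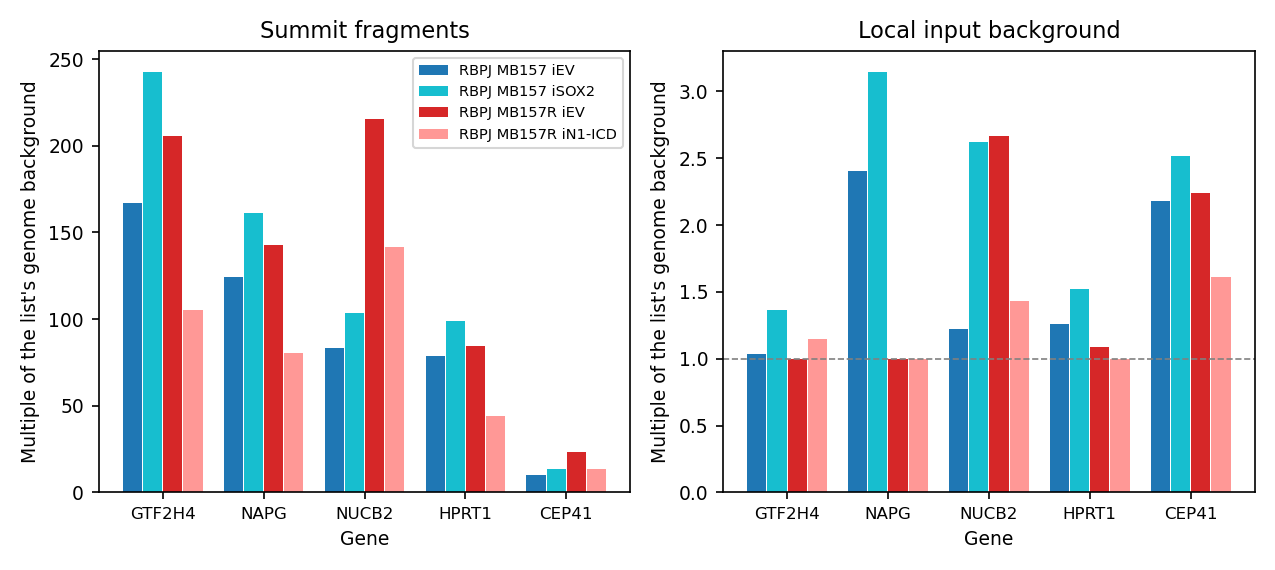
Fragments at the RBPJ promoter summit (left) and local input background there (right), each as a multiple of the genome background of the list, for the 5 genes and 4 RBPJ lists. At NAPG the fragments differ little between MB157 iEV and MB157R iEV (124 and 143 times the background) while the local background falls from 2.41 to 1.00 times, and at NUCB2 the fragments go from 83.5 to 216 times.

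The place of the RBPJ summit was nearly constant at NAPG and NUCB2 and less so at the others. At NAPG it was 4, 9, 12 and 13 bp upstream of the canonical TSS in MB157 iEV, iSOX2, MB157R iEV and iN1-ICD, a range of 9 bp. At NUCB2 it was 47, 42, 47 and 47 bp upstream, a range of 5 bp. At CEP41 it was 160, 166, 174 and 141 bp upstream, a range of 33 bp. At HPRT1 it was 177, 204, 174 and 159 bp upstream (45 bp), and at GTF2H4 70, 122, 129 and 117 bp upstream (59 bp).

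In all 4 RBPJ lists the summit of the strongest promoter peak of each of the 5 genes was upstream of the canonical TSS. Over the 5535 genes with RBPJ at the promoter in all 4 lists the median range was 285 bp (quartiles 105 and 601), and over the 46 of them with a fold of at least 20 in every list it was 23 bp. GTF2H4 had a wider spread of summits than 89.1% of those 46, and HPRT1 than 87.0%. NAPG and NUCB2 lay below most of them.

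Width varied among the members. The RBPJ peak of GTF2H4 was 745, 997, 774 and 624 bp wide in the 4 lists, and that of CEP41 was 409, 950, 919 and 643 bp wide. At NAPG the widths were 862, 1694, 927 and 765 bp. At NUCB2 they were 806, 1205, 1474 and 1521 bp, the MB157R lists being the widest. At HPRT1 they were 1543, 1464, 1610 and 642 bp.

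The medians over all promoter peaks were 507, 666, 784 and 481 bp. GTF2H4 was near the median of MB157R iEV, with 48.9% of promoter peaks narrower, and above it in the other lists, with 66.7% to 72.7% narrower. HPRT1 was above it in MB157R iEV (88.8% narrower). Promoter peaks of a fold like that of HPRT1 had a larger median width than those of a fold like that of CEP41 in all 4 lists. Those with a fold within 1.5 times that of HPRT1 in MB157R iEV had a median width of 1364 bp (43 peaks, 62.8% narrower than HPRT1), and those with a fold within 1.5 times that of CEP41 had 968 bp. Of the peaks of like fold, 71.1% were narrower than HPRT1 in MB157 iEV, 38.1% in iSOX2 and 18.4% in iN1-ICD. All these groups of like fold include the gene's own peak. For GTF2H4 they held only 2, 1, 3 and 8 peaks, so in MB157 iSOX2 there was none but its own and nothing to compare. In the other lists none was narrower, and the median in iN1-ICD was 1340 bp against its 624 bp. In iN1-ICD, where the HPRT1 peak was narrowest, a second peak 480 bp downstream of the TSS (229 bp wide, fold 4.72) was called apart from it, as the plot of peak regions shows.

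**Figure D3:**
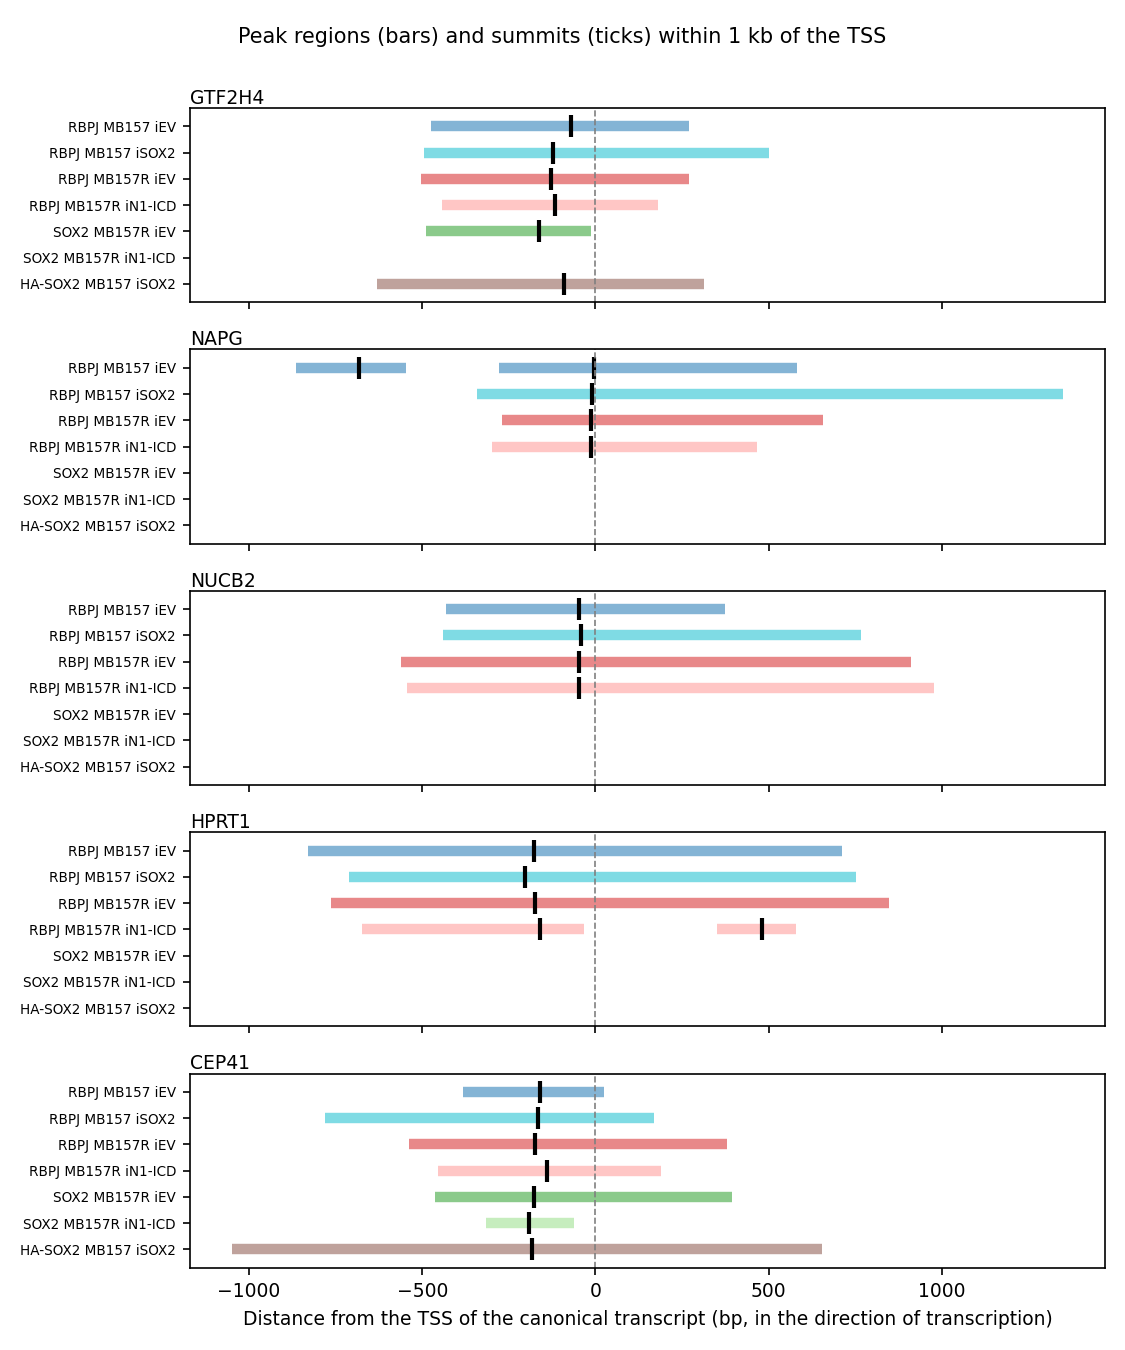
Peak regions (bars) and summits (black ticks) within 1 kb of the canonical TSS (dashed line at 0) in each list, by distance in bp along the direction of transcription. The RBPJ summits of NAPG and NUCB2 line up within 9 and 5 bp, those of GTF2H4 spread over 59 bp, and SOX2 peaks are present at GTF2H4 and CEP41 and absent from the lists at the other 3.

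SOX2 was called at the promoters of 2 of the 5 genes in MB157R iEV, GTF2H4 and CEP41, against 22.9% of all protein-coding genes. In MB157R iN1-ICD it was called at CEP41 alone (background 0.0802%). HA-SOX2 of MB157 iSOX2 was called at the same 2 promoters as SOX2 of MB157R iEV (35.3%), and the HA control had a peak at none (0.0601%). NAPG, NUCB2 and HPRT1 had no SOX2 or HA-SOX2 summit within 1 kb of the canonical TSS.

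CEP41 had a SOX2 fold of 38.0 in MB157R iEV (interval 33.0 to 43.6, 205 fragments), 9.27 in iN1-ICD (6.57 to 12.7, 36 fragments) and an HA-SOX2 fold of 25.3 in MB157 iSOX2 (21.7 to 29.4, 170 fragments). It ranked 20 among the 37963 SOX2 peaks of MB157R iEV and 13 among the 323 of iN1-ICD, but 6284 among the 108203 HA-SOX2 peaks. Among promoter peaks it ranked 4, 3 and 42. In fragments over the genome background the SOX2 signal was 105 in MB157R iEV and 20.7 in iN1-ICD, so that by either measure the list with the NOTCH1 intracellular domain was far lower, while the peak was among the few still called. The SOX2 peak was 857 bp wide in MB157R iEV and 254 bp in iN1-ICD. The median width over all peaks also differed between these lists, at 407 bp and 250 bp.

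The 3 SOX2 summits of CEP41 were 176, 191 and 182 bp upstream of the TSS. The RBPJ and SOX2 summits of MB157R iEV were 2 bp apart, those of iN1-ICD 50 bp, and the RBPJ and HA-SOX2 summits of MB157 iSOX2 16 bp. The SOX2 fold was above the RBPJ fold in MB157R iEV (38.0 against 8.45) and MB157 iSOX2 (25.3 against 4.57). In iN1-ICD (9.27 against 6.54) the intervals overlapped. The folds compared come from different antibodies, and the intervals do not cover a difference in scale between them. The region is in an exon of a CEP41 transcript other than the canonical one.

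GTF2H4 showed the opposite order of folds, with the same limit. Its SOX2 peak in MB157R iEV had a fold of 6.53 (4.06 to 10.0, 19 fragments), against 133 for RBPJ, and its HA-SOX2 peak in MB157 iSOX2 had a fold of 3.99 (2.45 to 6.18, 18 fragments), against 131. The summits lay 163 and 91 bp upstream of the TSS, 34 bp and 31 bp from the RBPJ summits of the same cells. The median fold of SOX2 promoter peaks was 4.35 in MB157R iEV and 4.20 in HA-SOX2, and the GTF2H4 peak ranked 677 of 4375 in the first list and 3998 of 6977 in the second.

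Counted from the RBPJ side, 2 of the 5 promoter summits of MB157R iEV had a SOX2 summit less than 500 bp away, as did 31.2% of the 11908 genes with RBPJ at the promoter. In MB157 iSOX2 it was also 2 of 5, against 43.8%, and in iN1-ICD 1 of 5, against 0.143%. Among the 280 genes with an RBPJ fold of at least 20 in MB157R iEV the share was 42.9%, and among the 146 in MB157 iSOX2 it was 52.7%. Of the 4 strong RBPJ promoters here, 1 had SOX2 in each of these pairs.

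Outside the promoters, 11 of the 38 peaks lay between 1 kb and 10 kb from the TSS. HA-SOX2 had 6 of these. They were 1.82 kb upstream of GTF2H4 (fold 7.66), 5.79 kb upstream and 9.23 kb downstream of the TSS of NAPG (7.02 and 12.3), 9.05 kb upstream of NUCB2 (6.17), and 5.64 kb downstream and 8.55 kb upstream of CEP41 (8.32 and 7.54). HA-SOX2 was thus called within 10 kb of 4 of the 5 genes, against 64.3% of all protein-coding genes, and within 10 kb of NAPG and NUCB2 only away from the promoter. At HPRT1 the nearest SOX2 summit of MB157R iEV was 27.9 kb from the RBPJ summit, and the nearest HA-SOX2 summit 36.1 kb.

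RBPJ had the other 5 of these peaks, all near GTF2H4. Each list had 1 between 5.06 and 5.90 kb downstream of the GTF2H4 TSS, with folds from 3.69 to 5.31, close to the TSS of VARS2, a mitochondrial tRNA synthetase gene that starts 5998 bp downstream. MB157 iEV had another 8.07 kb upstream (fold 4.23), in exon 18 of DDR1, a collagen receptor gene. A weak RBPJ peak of MB157 iEV was also called 683 bp upstream of the NAPG TSS (fold 3.99). At the edge of the 10 kb window the last peak inside was the HA-SOX2 peak 9.23 kb from NAPG, and the first outside was an HA-SOX2 peak 10.1 kb upstream of CEP41 (fold 4.18).

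The other genes of the same processes are given by their RBPJ in MB157R iEV, where 59.7% of all protein-coding genes had a promoter summit. As the members had been chosen for high folds, their place above these genes is a description. Of the other 9 TFIIH subunits, 6 had RBPJ at the promoter in MB157R iEV, with a median fold of 5.96 and at most 8.75 (GTF2H5), against 133 at GTF2H4. ERCC3, a helicase of TFIIH, had 6.91 and CCNH, the cyclin of the TFIIH kinase, had 6.02. Of the other 12 NSF, SNAP and SNARE genes, 10 had RBPJ, with a median of 7.91 and at most 11.8 (BET1, a Golgi SNARE). NAPA, which encodes alpha-SNAP, had 10.3, against 92.5 at NAPG.

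Nucleobindins, purine salvage and cilium genes had RBPJ at similar levels. Of 6 further EF-hand proteins of the secretory pathway 5 had RBPJ, with at most 9.78 (CALU, calumenin), and NUCB1, the paralog of NUCB2, had 5.63. All 6 other purine salvage genes had RBPJ in MB157R iEV, with folds from 4.85 (PRPS2) to 7.79 (ADK, adenosine kinase). Of 18 other cilium genes of Joubert syndrome 16 had RBPJ, with a median of 7.72 that is close to the 8.45 of CEP41. SOX2 was called at 6 of these 18, with at most 7.10 (CEP120), against 38.0 at CEP41.

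Genes often used as references in quantitative PCR had RBPJ more weakly than HPRT1, which is itself used as one. All 15 others had RBPJ at the promoter in MB157R iEV, with a median of 7.21 and at most 17.4 (TBP), 16.5 (PGK1) and 14.5 (GAPDH). Of 12 genes of the NOTCH pathway, 9 had RBPJ there, with a median of 11.8 and the highest folds at HES4 (54.8) and HEY2 (50.5), repressors that NOTCH switches on. The 1 kb limit mattered for this list, since within 5 kb of the TSS 10 of the 12 had RBPJ, with a median of 33.4, while the medians of the other 6 lists were then between 5.34 and 7.91. HPRT1 at 52.0 was thus at the level of HES4 and HEY2. Over all 11908 genes called in this list the median was 6.38, and 280 genes reached 20. Of the 78 genes in these lists other than the members, 38 had RBPJ in all 4 lists, against 27.7% of all genes.

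**Figure D4:**
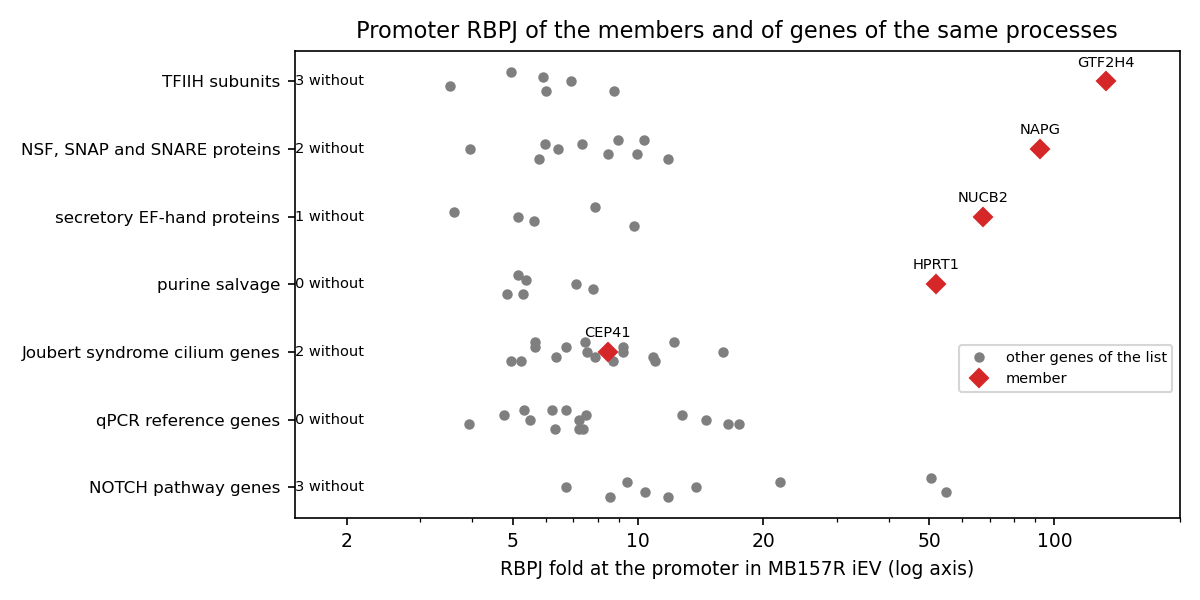
RBPJ fold (log axis) at the promoter in MB157R iEV for the 5 members (diamonds) and the other genes of 7 lists (grey points), with the number of genes that have no promoter peak at the left. GTF2H4, NAPG, NUCB2 and HPRT1 lie beyond all other genes of their own lists, while CEP41 lies among the cilium genes.

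The genes of most similar pattern were found by the smallest Euclidean distance over the log2 promoter folds of the 7 RBPJ, SOX2 and HA-SOX2 lists, with 0 where no peak was called. The lists share inputs within a kind of cells, and the distance is a description. For NAPG they were RASEF (distance 0.50), a small GTPase, and ZNF155 (0.52), a zinc finger gene. For NUCB2 they were HES4 (0.71) and RASEF (0.72), and for HPRT1 HEY2 (0.73) and HES4 (0.84). GTF2H4 was farther from any other gene, the nearest being RPL39 (1.82), a ribosomal protein gene, and DDX39B (2.10), an RNA helicase of mRNA export.

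At RPL39 the RBPJ fold was 69.2, 81.3, 68.0 and 31.9 in the 4 lists and the SOX2 fold 3.72 in MB157R iEV, so that, as at GTF2H4, iN1-ICD was lowest and SOX2 weak, but MB157R iEV was not the highest list. All 6 of these genes held the RBPJ core within 100 bp of their MB157R iEV summit, which GTF2H4 did not. For CEP41 the nearest were ZSCAN2 (0.88), a zinc finger gene, and PLPP2 (1.16), a lipid phosphatase. Both had SOX2 called in all 3 SOX2 lists, with folds of 25.8 and 42.7 in MB157R iEV and 8.28 and 9.30 in iN1-ICD, and neither held the RBPJ core. PLPP2 held AACAANG near its summit and ZSCAN2 did not.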

How the data were processed

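The authors trimmed the paired-end reads with bclconvert (v.3.9.3), mapped them to hg38 with BWA and called narrow peaks with MACS2 at an FDR of 0.05 on pooled libraries against input (pipeline nf-core/chip-seq, release 2.0.0). The 8 deposited lists give peak coordinates and summit offset in bp (other columns), a whole-number score derived from q, the fold over the local input background as a ratio, and −log10 p and −log10 q. The deposited score was not used. No column of per-sample values was left unmapped (0 columns). Chromosomes 1 to 22 and X were analysed. Summit fragments and local background were solved from the deposited ratio and −log10 p, which gave whole fragments for 100% of peaks within 0.01. The ratio adds a pseudocount of 1 to both parts. The genome background is the smallest local background of a list, and served as the measure of depth, since read counts were not used here.

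Genes and TSSs came from GENCODE 44. The TSS had been set as the 5′ end of the gene, with the canonical transcript as an alternative. The text uses the canonical transcript, as the strongest peaks of NUCB2 and CEP41 lie there. A promoter was within 1 kb of the TSS. The genes named were the 5 members, genes within 10 kb of them, those of highest MB157R iEV fold in each gene list and the 2 of most similar pattern per member. CCNH, ERCC3, NAPA, NUCB1 and PRPS2 were named after their values had been seen. The members and lists were chosen with earlier results of these data known. With 1 pooled list per condition no test was made. Recovery of fragments was tested on simulated data. Software was samtools 1.23.1, matplotlib 3.10.9, pysam 0.24.0, scipy 1.17.1, pandas 2.3.3, numpy 2.4.6 and Python 3.11.15.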

Additional observations from a re-analysis of the deposited data

How the results depend on the processing

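No paired analysis was possible because the lists had been called on pooled libraries, and for the same reason no replicate could be left out. From the 5′ end of the gene 43 peaks lay within 10 kb, 35 if −log10 q had to reach 5 and 33 within 5 kb, and from the canonical TSS 38, 31 and 28. The count of RBPJ promoter calls over the 20 pairs of gene and list was 15 from the 5′ end and 20 from the canonical TSS. The median RBPJ fold of those calls was 49.3 and became 98.7 as fragments over the genome background. Also from the 5′ end, SOX2 lay less than 500 bp from 2 RBPJ summits in MB157R iEV, and less than 100 bp from 1. These 2 were at GTF2H4 and the outermost end of NUCB2. From the canonical TSS the 2 were GTF2H4 and CEP41, and the count stayed 2 within 100 bp and 250 bp. For HA-SOX2 in MB157 iSOX2 the 2 from the 5′ end became 1 within 100 bp or 250 bp and 0 with lists of equal length. From the canonical TSS it stayed 2 at both distances and became 1 with equal lengths. In iN1-ICD the 0 from the 5′ end became 1 from the canonical TSS, also at other distances, by overlap and at the stricter −log10 q, but stayed 0 with lists of equal length. Widths were at a median percentile of 75.2 among promoter peaks and of 20.3 among those of like fold, or 32.8 from the canonical TSS. The groups of like fold include the peak itself and are small for GTF2H4. The median range of places was 45 bp for summits and 396 bp for the middles of the peaks, and 33 bp and 246 bp from the canonical TSS. The RBPJ core was near 2 summits from the 5′ end, 1 within 50 bp, and near 3 from the canonical TSS, 2 within 50 bp. The cause of these differences was not tested, apart from the place of the TSS and the choices themselves. The settings with the canonical TSS together with another choice and the search for CTGGGAA were added after seeing the data. Depth limits the weak peaks of 11 to 28 fragments, where absence from a list means not detectable at this depth.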
